A study of Papio cynocephalus with 12 samples.

Results

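The genes described here encode the proteins of the large subunit of the cytosolic ribosome. They were chosen by a list of 46 RefSeq accessions, 1 transcript for each gene from RPLP0 (NM_001002) and RPL3 (NM_000967) to RPL41 (NM_021104), by a rule that names the accessions and uses no measured value. All 46 had 1 row in every table, among 41970 rows that hold 40915 accessions. The study mapped RNA-Seq reads of yellow baboon (Papio cynocephalus) blood to the human genome or transcriptome, in order to compare mapping methods for a primate studied with the reference of a related species. The 12 samples are the baseline samples of 12 adult male colony-bred animals, 1 sample each, taken before any bacterium was given, so that all of them form 1 group with no treatment. The labels call the source peripheral blood mononuclear cells, while the collection tubes named in the protocol stabilise the RNA of whole blood. Cell type markers could not be checked, because the accessions outside the list carry no gene names in the sources used here. Globin transcripts were depleted before the libraries were made.

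The same reads of each animal were counted in 6 tables. Bowtie2 and Stampy are unspliced aligners, which place a read without a long gap, and both were used on the transcriptome (called Bowtie2 and Stampy below) and on the genome (Bowtie2-G and Stampy-G). TopHat2 and GSNAP are spliced aligners, which can place a read across an exon junction of the genome. A level is the number of counts per 1000000 read pairs left after quality control, so that 1 scale holds for all 6 tables. Levels were compared between methods or animals for 1 gene at a time and never ranked between genes, since no transcript lengths were at hand. The tables held 7249470 to 18911340 counts per animal, and no pair of animals looked like a library deposited more than once.

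Ribosomal protein genes are among the most strongly transcribed genes of most cells, and their mRNAs share a start sequence of pyrimidines through which growth signals control their translation. Their transcripts are short, are built from many small exons, and have left large families of processed pseudogenes, copies without introns that lie elsewhere in primate genomes. In the ribosome, RPLP0, RPLP1, RPLP2 and RPL12 form the stalk that recruits translation factors, and RPL10A forms the mobile stalk at the other side. RPL5 and RPL11 carry the 5S rRNA and can bind MDM2 when ribosome assembly fails, RPL3, RPL8 and RPL10 reach towards the catalytic centre, and proteins such as RPL4, RPL23A and RPL39 line or surround the tunnel through which the new peptide leaves. Because of the pseudogene copies, the count of any of these genes is uncertain wherever reads fit a copy about as well as the gene.

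Of the 46 genes, 33 had a mean of 100 or more counts per animal in at least 1 table, 6 stayed under 100 in all tables, and 7 had no count in any animal or table. The 7 were RPLP0, the core of the stalk, RPL6, RPL15, RPL28, RPL31, RPL32 and RPL41. They made up 15.2% of the list, while 33.8% of all 40915 accessions and 35.2% of the 33934 accessions of the NM class had no count anywhere. A count of 0 does not show that a transcript was absent, because the counting mode drops reads that fit several annotated transcripts equally well. Its part in these 7 zeros was not tested.

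The 6 genes with few counts were RPL13, RPL13A, RPL14, RPL17, RPL21 and RPL34. RPL34 had 255 counts over the 12 animals with TopHat2 and 0 with Bowtie2, Bowtie2-G, Stampy-G and GSNAP, which makes its TopHat2 count at least 85-fold higher than with each of these (floor of 3 counts over the 12 animals). RPL13 had 26 counts with TopHat2 and 0 with the other methods. RPL17, a tunnel protein whose gene is known to form read-through transcripts with a neighbour, had its highest mean level with Stampy, 1.58 ± 0.537 (SD, n = 12), and its lowest with GSNAP, 0.243 ± 0.0691. At least 5 counts in each of the 12 animals were found for 35 genes with Stampy and with TopHat2, 32 with Bowtie2, 30 with Stampy-G, 29 with GSNAP and 28 with Bowtie2-G. The share of all accessions at this limit was not computed, so whether the order is particular to these genes cannot be said.

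**Figure D1:**
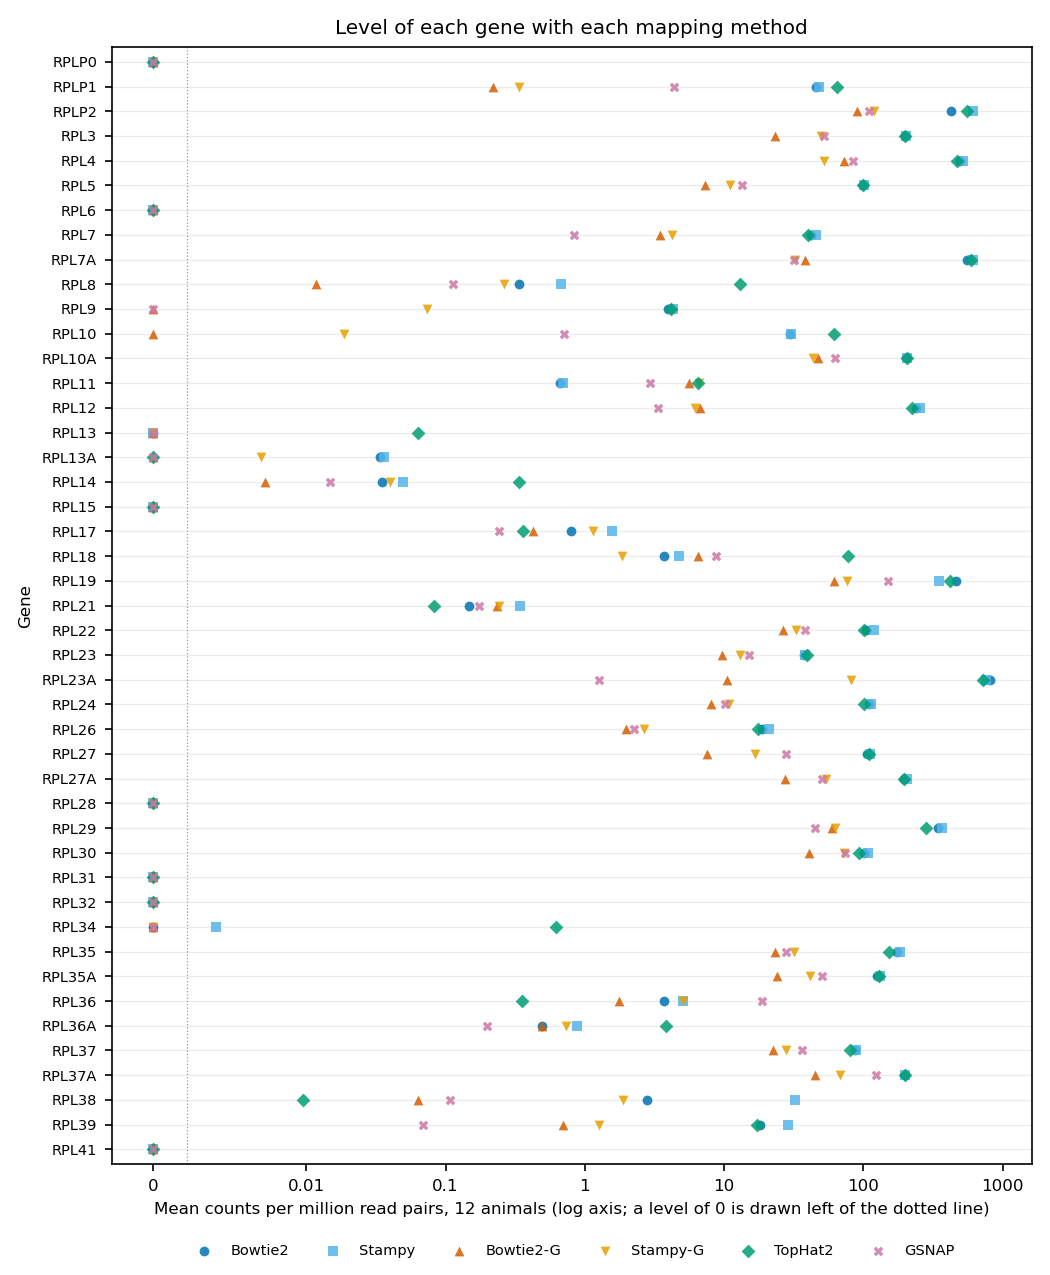
Mean level of 45 of the 46 genes (rows) with each mapping method (symbols), in counts per 1000000 read pairs over 12 animals on a log axis, with levels of 0 drawn left of the dotted line. For most genes with many counts Bowtie2, Stampy and TopHat2 lie together on the right and Bowtie2-G, Stampy-G and GSNAP to the left of them. Genes that do not follow this order include RPL8, RPL11, RPL17, RPL18, RPL21, RPL36, RPL36A and RPL38.

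The summed level of the list differed more between methods than the totals of the tables did. It was 5591 ± 1565 (SD, n = 12) for Bowtie2, 5904 ± 1651 for Stampy and 5661 ± 1552 for TopHat2. For the other genome methods it was 687 ± 190 (Bowtie2-G), 942 ± 258 (Stampy-G) and 1061 ± 289 (GSNAP). The lowest animal with Bowtie2, at 3624, was above the highest animal with GSNAP, at 1639, so the ranges of the former 3 methods did not overlap with those of the latter.

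The genes of the list took 1.43% ± 0.357 of all counts with Bowtie2, 1.24% ± 0.304 with Stampy and 1.45% ± 0.359 with TopHat2. Their share was 0.213% ± 0.0581 (Bowtie2-G), 0.221% ± 0.0588 (Stampy-G) and 0.448% ± 0.120 (GSNAP) for the remaining methods. Within an animal, Bowtie2 counted these genes 8.15 ± 0.320 times as often as Bowtie2-G (range over animals 7.55 to 8.52), whereas the total of all counts differed 1.21-fold. Stampy counted them 6.27 ± 0.168 times as often as Stampy-G, against 1.12-fold for all counts. TopHat2 and GSNAP, both spliced aligners on the same genome, differed 5.34 ± 0.252-fold for the list and 1.65-fold for all counts.

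**Figure D2:**
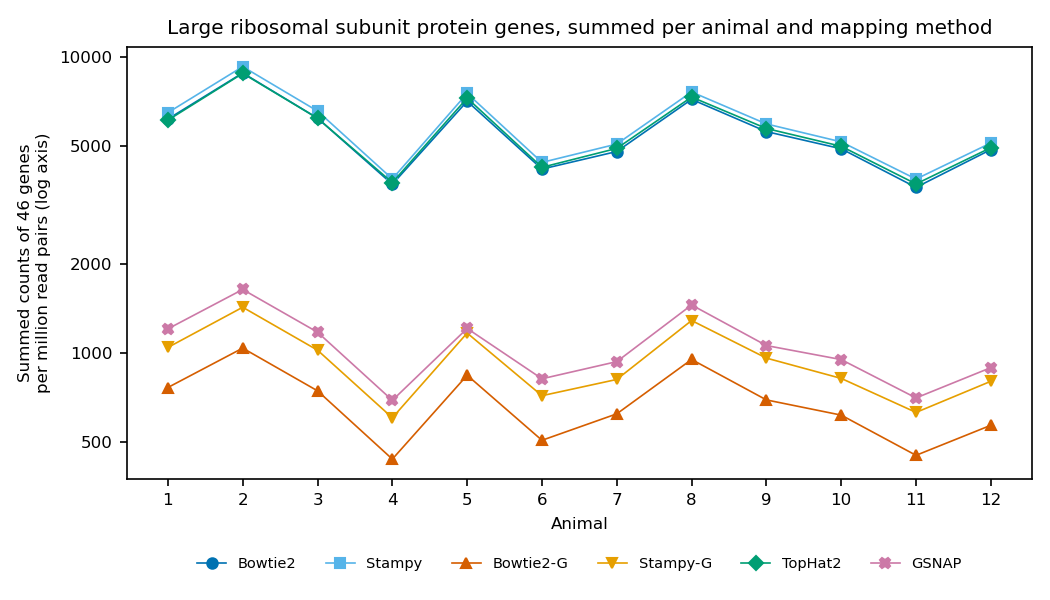
Summed level of the 46 genes in each animal (x axis) with each mapping method (lines), in counts per 1000000 read pairs on a log axis. The lines run nearly parallel, with animal 2 highest in all 6 methods, and Bowtie2-G, Stampy-G and GSNAP lie below the other methods in every animal.

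Bowtie2 on the transcriptome was set against Bowtie2-G on the genome, the same program with another reference. How mapped reads were assigned to transcripts may differ as well, and its part was not tested. Of the 33 genes tested, 30 were higher with Bowtie2, 2 were lower and 1 did not pass the test (edgeR's quasi-likelihood test with the animal as a block, adjusted p under 0.05). Among all 11409 accessions tested 70.1% were higher and 7.29% lower. That background split holds for counts per read pair, since with TMM scaling of each table's own total 3939 accessions were higher and 5704 lower of 11416, while of the list 30 genes were higher and 3 lower. The median log2 difference was 2.90 for the list and 0.22 over all accessions. All 32 calls had the same direction in 12 of 12 animals, and of the 30 genes with a mean of 100 or more counts in either table, 23 were at least 4-fold higher with Bowtie2. Of these 23, RPLP1, RPL9, RPL10, RPL26 and RPL39 reached that mean only with Bowtie2, so the filter itself favours such folds. The share of all accessions at 4-fold or more was not computed. The p-values here and below measure how evenly a difference between methods repeats over animals, because the columns compared within an animal come from 1 set of reads.

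Among the stalk genes, RPLP2 had a Bowtie2 level between 252 and 696 (median 413) and a Bowtie2-G level between 50.4 and 151 (median 89.3). Its ranges did not overlap, and its log2 difference was 2.24 ± 0.0980 (SD of the difference over 12 animals, adjusted p = 4.01e-17). RPLP1, its partner in the stalk, went from 18.5 to 115 (median 36.8) with Bowtie2 down to 0.0552 to 0.557 (median 0.203) with Bowtie2-G, a log2 difference of 7.69 ± 1.07 (adjusted p = 2.91e-16). RPL12, at the base of the stalk, had levels from 143 to 542 (median 214) with Bowtie2 and from 4.56 to 9.43 (median 6.45) with Bowtie2-G. It was 35.9-fold higher with Bowtie2 (log2 difference 5.15 ± 0.312, adjusted p = 7.40e-17), and RPL10A of the other stalk was 4.34-fold higher.

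The genes whose products carry the 5S rRNA went in opposite directions. RPL5 had 58.2 to 201 (median 79.4) with Bowtie2 and 4.30 to 14.0 (median 6.84) with Bowtie2-G, and was 13.5-fold higher with Bowtie2 in 12 of 12 animals (adjusted p = 4.04e-17). RPL11 had 0.297 to 1.29 (median 0.604) with Bowtie2 and 2.38 to 11.9 (median 5.30) with Bowtie2-G, and was 8.46-fold lower with Bowtie2 in 12 of 12 animals (log2 difference -3.07 ± 0.224, adjusted p = 1.64e-15).

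Of the genes near the catalytic centre, RPL3 was 8.66-fold higher with Bowtie2, at a mean level of 200.1 ± 52.3 against 23.1 ± 5.87. RPL10, whose product joins the subunit late in its maturation, had 12183 counts over the 12 animals with Bowtie2 and 0 with Bowtie2-G, which makes it at least 4061-fold higher (floor of 3 counts over the 12 animals). RPL9, whose product lies at the factor-binding side, was also at 0 with Bowtie2-G and at least 541-fold higher with Bowtie2. Both passed the test, with adjusted p = 3.45e-05 for RPL10 and 0.000271 for RPL9.

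All 9 genes of the exit tunnel group that were tested were higher with Bowtie2, and those with a mean of 100 or more counts were 3.92-fold to 77.5-fold higher. RPL23A, a docking site for factors at the tunnel exit, marked the upper end, with levels from 480 to 1370.2 (median 723) with Bowtie2 and from 6.02 to 17.5 (median 9.63) with Bowtie2-G. Its log2 difference of 6.27 ± 0.0838 was even over animals (adjusted p = 4.01e-23). RPL39, a very small protein inside the tunnel, was 25.8-fold higher (log2 difference 4.68 ± 0.511, adjusted p = 9.34e-16), and RPL22, known for binding viral RNA, marked the lower end.

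Of the remaining 26 genes, 16 were tested, of which 14 were higher with Bowtie2. RPL7A was 14.7-fold and RPL27 14.0-fold higher. RPL30, which in yeast regulates the splicing of its own transcript, had a smaller gap, with a median of 87.7 (41.5 to 197) with Bowtie2 and 36.4 (18.5 to 76.1) with Bowtie2-G. Its ranges overlapped, but Bowtie2 was higher in each animal (2.46-fold, adjusted p = 6.88e-16). RPL18 was lower with Bowtie2 in 12 of 12 animals, with a mean level of 3.69 ± 1.01 against 6.48 ± 1.82 (log2 difference -0.81 ± 0.122, adjusted p = 1.17e-11). RPL36A, whose product touches the tRNA that leaves the ribosome and whose gene also has a read-through neighbour, was at 0.490 ± 0.270 with Bowtie2 and 0.495 ± 0.346 with Bowtie2-G (adjusted p = 0.873). TMM scaling set its log2 difference at -0.35, which was called lower (adjusted p = 0.0169).

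Stampy was compared with Stampy-G in the same way. Of 35 genes tested, 31 were higher on the transcriptome and 1, RPL11, was lower, while 64.5% of all 13416 accessions tested were higher and 9.11% lower. With TMM scaling 30 genes of the list were higher and 2 lower, beside 5007 and 6244 of 13353 accessions. The median log2 difference was 2.37 for the list and 0.19 over all accessions, and 31 of the 32 calls had 1 direction in 12 of 12 animals, the exception being RPL18 with 11 of 12. RPL11 had Stampy levels of 0.297 to 1.38 (median 0.649) and Stampy-G levels of 2.76 to 14.1 (median 6.21), a log2 difference of -3.23 ± 0.192 (adjusted p = 5.78e-16).

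Among the higher genes, RPL10 had a mean level of 30.1 ± 7.46 with Stampy and of 0.0187 ± 0.0217 with Stampy-G (log2 difference 10.35 ± 0.773, adjusted p = 3.64e-18). RPLP1 was 144-fold higher with Stampy, RPL9 58.3-fold, RPL12 40.9-fold and RPL39 22.6-fold, each in 12 of 12 animals. RPL23A, with 756 ± 234 against 82.1 ± 25.8, was 9.21-fold higher and so kept more of its counts on the genome with Stampy-G than it did with Bowtie2-G. RPL36 did not pass the test, with 5.06 ± 1.34 with Stampy and 5.03 ± 1.46 with Stampy-G (log2 difference 0.02 ± 0.143, adjusted p = 0.785). TMM scaling set its log2 difference at -0.26, which was called lower (adjusted p = 5.72e-05).

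TopHat2 was compared with Bowtie2-G and with GSNAP. It runs Bowtie2 inside and, given an annotation, tries the annotated transcripts before the genome, so it is not a mapping to the genome alone. Against Bowtie2-G, 31 of 33 genes tested were higher with TopHat2 and 1 was lower, beside 70.6% and 8.10% of all 11146 accessions tested. The median log2 difference was 2.91 for the list and 0.20 over all accessions. Against GSNAP, 32 of 33 were higher with TopHat2 and 1 lower, beside 93.2% and 3.24% of all 10747 accessions tested, with medians of 2.49 and 0.72. With TMM scaling the list gave 30 higher and 2 lower against Bowtie2-G, beside 3660 and 5309 of 11043 accessions, and 29 higher and 3 lower against GSNAP, beside 4290 and 4591 of 10663. The lower gene was RPL36 in both. These comparisons share the TopHat2 columns with each other and the Bowtie2-G columns with the comparisons of unspliced mappers.

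RPL10 showed the widest gap to Bowtie2-G, with 25392 TopHat2 counts over the 12 animals and 0 Bowtie2-G counts, at least 8464-fold. RPL8, a catalytic centre gene, had TopHat2 levels of 5.80 to 21.98 (median 13.6) and Bowtie2-G levels of at most 0.0576 (median 0). Its log2 difference was 9.69 ± 0.960 (adjusted p = 2.45e-17). RPLP1 was 298-fold, RPL23A 68.3-fold and RPL12 33.8-fold higher with TopHat2, and RPL9, at 0 with Bowtie2-G, at least 564-fold. RPL17 had 0.360 ± 0.147 with TopHat2 and 0.422 ± 0.189 with Bowtie2-G and did not pass the test (adjusted p = 0.209). TMM scaling set its log2 difference at -0.52, which was called lower (adjusted p = 0.00178).

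GSNAP, although spliced, counted RPL23A least of all methods. Its TopHat2 level was 425 to 1205.7 (median 639) and its GSNAP level 0.535 to 2.16 (median 1.28). The mean was 566-fold higher with TopHat2 (log2 difference 9.14 ± 0.349, adjusted p = 2.57e-23), and the highest GSNAP animal lay below the lowest Bowtie2-G animal. RPL39 was 245-fold, RPL8 116-fold, RPL10 87.0-fold and RPL12 66.6-fold higher with TopHat2, and RPL9 was at 0 with GSNAP, which sets TopHat2 at least 564-fold higher. At the other end, RPL30 differed 1.28-fold and RPL37A 1.61-fold, both in 12 of 12 animals (adjusted p = 3.33e-17 and 8.07e-22). Both directions hold only for counts per read pair, since TMM scaling, which moves the median of all accessions by -0.74 here, turned their log2 differences from 0.35 to -0.39 and from 0.69 to -0.050.

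**Figure D3:**
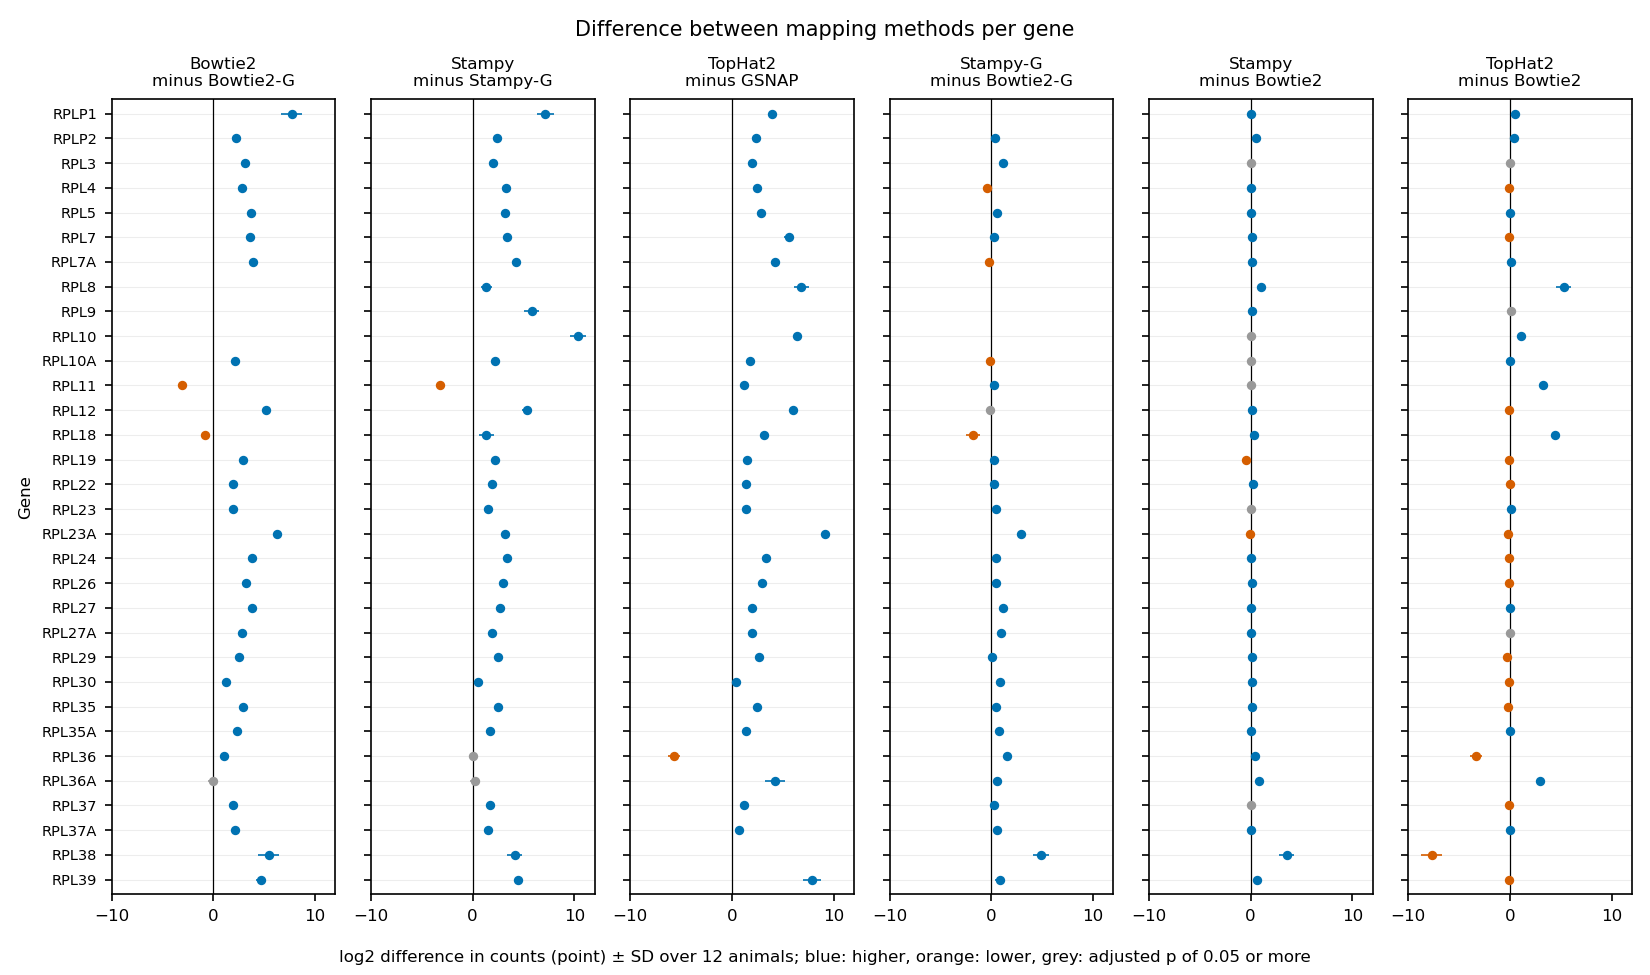
log2 difference in counts between 2 mapping methods (x axis) for 32 of the 33 genes with a mean of 100 or more counts in a table (rows), in 6 comparisons (panels), with bars for the SD over 12 animals and colours for the call. In the 3 panels on the left nearly all points lie to the right of 0, while in the 2 panels on the right most lie close to it. Genes that were not tested, or at 0 with a method (RPL9 and RPL10 with Bowtie2-G, RPL9 with GSNAP), have no point.

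Stampy-G was set against Bowtie2-G as the comparison of unspliced mappers on the genome. Of 30 genes tested, 24 were higher with Stampy-G and 5 were lower, where 89.7% and 1.86% of all 10738 accessions tested were called in these directions. The median log2 difference was 0.44 for the list and 0.42 over all accessions. With TMM scaling of each table's own total, which moves the median of all accessions by -0.45, the split was 12 higher and 13 lower (3698 and 4187 of 10690 accessions), so the directions of small differences here hold only for counts per read pair. Without the animal block 13 were called higher and 3 lower.

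The genes lower with Stampy-G included RPL4, RPL7A, RPL10A and RPL18. RPL4, which lines the tunnel, had 26.1 to 76.0 (median 49.9) with Stampy-G and 36.4 to 109 (median 70.1) with Bowtie2-G. The ranges overlapped, yet Stampy-G was lower in 12 of 12 animals (log2 difference -0.46 ± 0.0801, adjusted p = 2.29e-12). RPL7A was lower in 12 of 12 animals, with a log2 difference of -0.23 ± 0.106. RPL18 was 1.84 ± 1.11 with Stampy-G and 6.48 ± 1.82 with Bowtie2-G, lower in 11 of 12 animals (adjusted p = 1.32e-06). In the other direction RPL38 was 30.6-fold higher with Stampy-G, with a mean level of 1.89 ± 1.11 against 0.0631 ± 0.0775, and RPL23A was 7.83-fold higher (log2 difference 2.97 ± 0.119, adjusted p = 1.46e-20). RPL36, RPL27 and RPL3 were 2.86-fold, 2.23-fold and 2.16-fold higher.

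On the transcriptome, Stampy and Bowtie2 gave these genes nearly the same counts. Of 34 genes tested, 26 were higher with Stampy and 2, RPL19 and RPL23A, were lower, beside 82.6% and 3.34% of all 13081 accessions tested. The median log2 difference of the list was 0.09, below the 0.38 of all accessions, and of 30 genes with a mean of 100 or more counts 20 differed by less than 10%. The share of all accessions within 10% was not computed. With TMM scaling, which moves the median of all accessions by -0.42, 6 genes were higher and 26 lower (4942 and 5542 of 13024 accessions), and without the animal block 6 were called higher and 1 lower.

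A few genes stood out in size. RPL38, a small protein whose mutation in mice alters the body axis, had a Stampy level of 20.1 to 53.7 (median 29.8) and a Bowtie2 level of 1.27 to 4.72 (median 2.65). It was 11.6-fold higher with Stampy in 12 of 12 animals (log2 difference 3.53 ± 0.728, adjusted p = 1.29e-11). RPL39 was 1.58-fold, RPLP2 1.46-fold and RPL36 1.38-fold higher with Stampy. With TMM scaling the log2 difference of RPL36 fell to 0.048 and was no longer called (adjusted p = 0.408). Those of RPL39 and RPLP2 fell to 0.25 and 0.12 and stayed called. RPL19, part of a bridge to the small subunit, had Stampy levels of 226 to 501 (median 321) and Bowtie2 levels of 303 to 671 (median 431), and was lower with Stampy in each animal (log2 difference -0.41 ± 0.0276, adjusted p = 3.19e-15). RPL23A was lower by a small but even step, -0.10 ± 0.00558.

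TopHat2 and Bowtie2 on the transcriptome gave the list almost the same sum, with a ratio of 1.01 ± 0.0121 and TopHat2 higher in 9 of 12 animals. Of 34 genes tested, 15 were higher and 16 lower with TopHat2, beside 28.4% and 35.3% of all 11643 accessions tested, and the medians were 0.00 and -0.01. TMM scaling turned the split to 18 higher and 13 lower, beside 4314 and 3398 of 11604 accessions. The directions of small differences here therefore hold only for counts per read pair. Of 32 genes with a mean of 100 or more counts in either table, 21 differed by less than 10% and 4 were at least 4-fold higher with TopHat2. Of these 4, RPL8, RPL11 and RPL36A reached that mean only with TopHat2, so the filter itself favours such folds. The shares of all accessions past these limits were not computed. All 9 tested genes of the exit tunnel group were lower with TopHat2, most of them by little, from RPL23A at -0.18 ± 0.0106 and RPL35 at -0.17 ± 0.0586 to RPL22 at -0.04 ± 0.0369 on the log2 scale, with RPL17 at -1.12 ± 0.584 and RPL38 at -7.71 ± 1.02 far below. With TMM scaling RPL22 (0.00044, adjusted p = 0.965) and RPL39 (-0.018, adjusted p = 0.465) were no longer called. RPL29, which binds heparin when outside the cell, was 1.22-fold lower with TopHat2. Without the animal block 5 genes were called higher and 3 lower.

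The near-equal sum hid genes that TopHat2 counted far more or far less often. RPL18 had TopHat2 levels of 52.9 to 132 (median 74.0) and Bowtie2 levels of 2.07 to 5.64 (median 3.81), and was 21.1-fold higher (log2 difference 4.40 ± 0.183, adjusted p = 1.35e-19). RPL8 was 39.1-fold, RPL11 9.84-fold, RPL36A 7.74-fold and RPL10 2.08-fold higher with TopHat2, all in 12 of 12 animals. RPL36 went the other way, with TopHat2 levels of 0.141 to 0.548 (median 0.369) and Bowtie2 levels of 1.94 to 5.80 (median 3.61), and was 10.3-fold lower (log2 difference -3.36 ± 0.560, adjusted p = 4.10e-12). RPL38 had 4 counts over the 12 animals with TopHat2, at a mean level of 0.00947 ± 0.0140 against 2.80 ± 1.22 with Bowtie2.

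Counted by the method that gave the highest mean, the 33 well-counted genes divided into 22 with Stampy, 7 with TopHat2, 2 with Bowtie2 (RPL19 and RPL23A), 1 with Stampy-G (RPL11) and 1 with GSNAP (RPL36). The same division of all accessions was not computed, so these counts describe the list only. RPL8 and RPL36A reached a mean of 100 only with TopHat2 and RPL38 only with Stampy, the methods where they were highest. RPL36 had 11.3 to 31.7 (median 17.2) with GSNAP, above the highest animal of every other method. RPL11 was near the same level with TopHat2, 6.51 ± 2.80, and Stampy-G, 6.56 ± 2.82, whose ranges overlapped widely. No method was therefore highest, or near the highest, for every gene of the list.

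**Figure D4:**
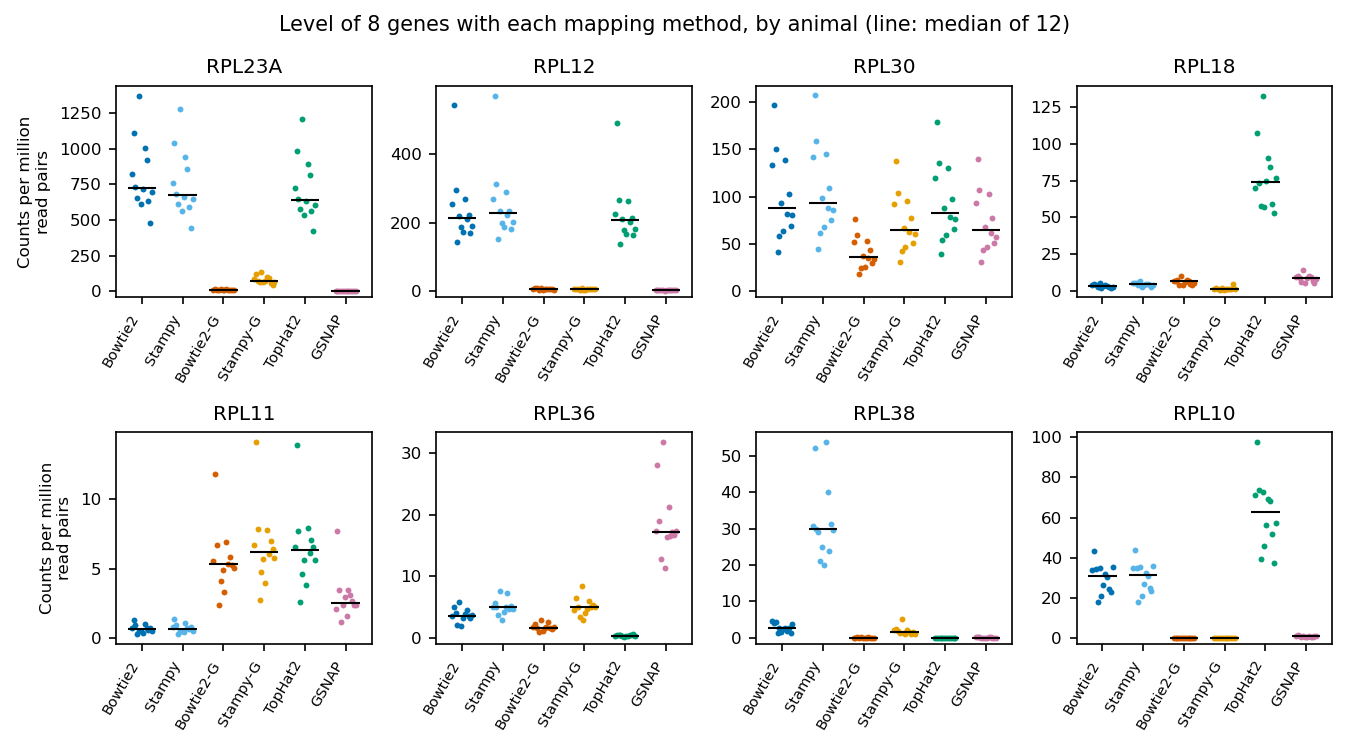
Level of RPL23A, RPL12, RPL30, RPL18, RPL11, RPL36, RPL38 and RPL10 (panels) in each of 12 animals (points) with each mapping method (x axis), in counts per 1000000 read pairs on linear axes that start near 0, with a line at the median. RPL18 and RPL10 are highest with TopHat2, RPL36 with GSNAP and RPL38 with Stampy, with medians of 74.0, 62.7, 17.2 and 29.8.

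The spread between animals was described by the coefficient of variation (SD over mean). Among genes with a mean of 100 or more counts, its median was 0.343 for 31 genes of the list with TopHat2, beside 0.253 for all 6697 accessions at that count, and 0.319 to 0.333 beside 0.247 to 0.266 with the other methods. With TopHat2 the coefficient was 0.766 for RPL9, 0.591 for RPLP1 and 0.561 for RPL27A, and at the low end 0.206 for RPL37A, 0.240 for RPL22 and 0.249 for RPL7A. The high values rested in part on animal 2, without which (an alternative chosen after seeing the data) they were 0.383 for RPL9, 0.452 for RPLP1 and 0.366 for RPL27A, and the medians were 0.290 for the list and 0.249 for all accessions. Of all genes with any count, it was larger for the sparsely counted RPL38 (1.48) and RPL13 (1.42). Since blood is a mixture, fewer cells of a type and less RNA per cell cannot be told apart in any difference between animals.

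Animals 2, 8 and 5 had the highest summed levels and animals 6, 4 and 11 the lowest with all 6 methods. The sum was highest in animal 2 with all 6 methods, and lowest in animal 11 with Bowtie2, Stampy and TopHat2 and in animal 4 with Bowtie2-G, Stampy-G and GSNAP. Highest and lowest animals differed 2.36-fold to 2.43-fold. As a share of each table's counts, animal 11 was lowest with all 6 methods, and animal 8 rather than animal 2 was highest with Bowtie2-G and GSNAP. With TopHat2 animal 2 was the highest animal for 22 of 31 genes (71.0%), compared with 19.3% of all accessions at that count, and RPL9 reached 4.59 times the median of the other 11 animals there. Animal 4 was among the lowest 3 for 27 of 31 genes (87.1% beside 23.4%) and animal 11 for 23 of 31 (74.2% beside 47.6%). Animal 8 was among the highest 3 for 25 of 31 genes (80.6% beside 28.9%). All 6 tables share the reads of an animal, so the repeat over tables adds no independent sample.

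Animal 5 split the list. With TopHat2, 13 of 31 genes (41.9%) were 25% or more above the median of the other 11 animals, called high here, and 12 (38.7%) were 20% or more below it, called low, whereas among all accessions 59.7% were high and 11.0% low in this animal. Over all tables in which a gene had a mean of 100 or more counts, 11 genes were high in every such table. They included RPLP2, RPL3, RPL7A, RPL18, RPL19, RPL22, RPL23A, RPL29, RPL35 and RPL36, with RPL23A at 1.85 to 1.92 times and RPLP2 at 1.64 to 1.74 times the median of the others. The 9 genes low in every such table were RPLP1, RPL9, RPL23, RPL24, RPL30, RPL36A, RPL37, RPL38 and RPL39, where RPL36A and RPL38 had only 1 such table. RPL39 was at 0.329 to 0.431 times and RPL37 at 0.354 to 0.492 times the median of the others, and the remaining 13 genes were on neither side throughout. The stalk partners RPLP1 and RPLP2 were thus on opposite sides in this animal. No share of all accessions was computed for being high or low in every such table. In single tables, 57.1% (GSNAP) to 61.0% (Stampy) of all accessions were high in animal 5, and 10.4% (Stampy) to 12.3% (Stampy-G) were low. These groups of genes were formed after the values were seen, so no test was made of them.

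**Figure D5:**
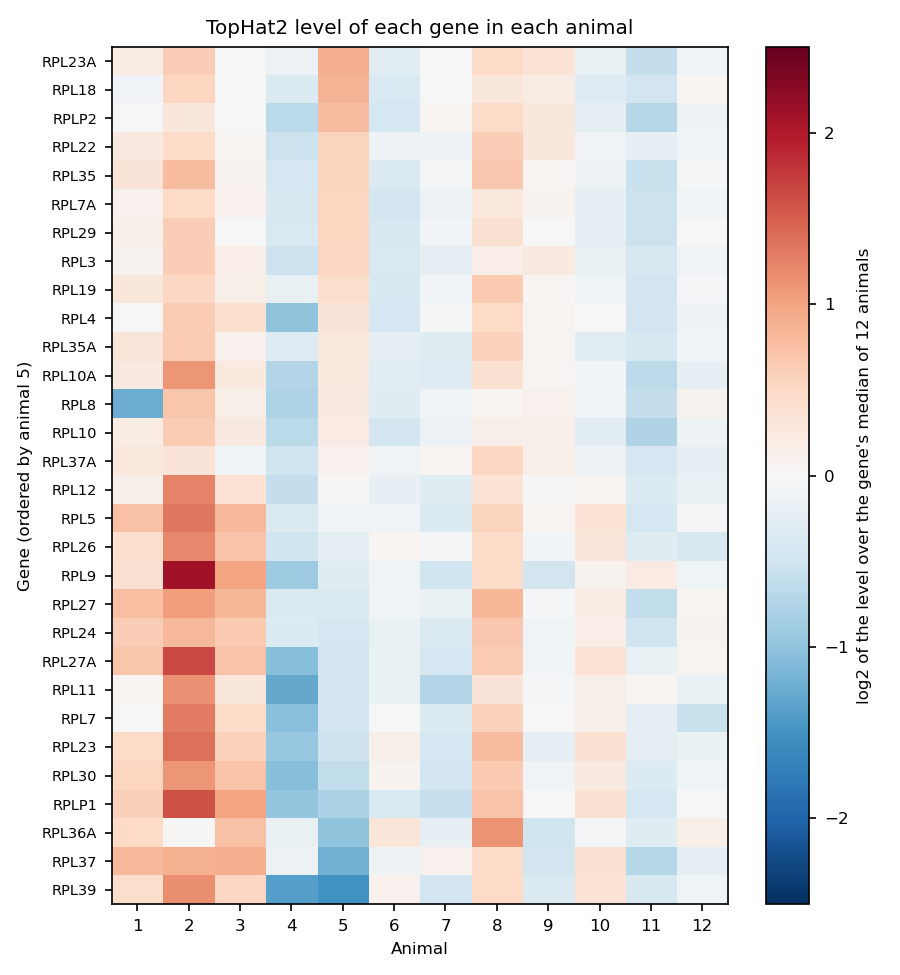
TopHat2 level of 30 of the 31 genes (rows, ordered by animal 5) in 12 animals (columns), as the log2 of the level over the gene's median of the 12 animals, red above and blue below the median. Columns 2 and 8 are red and columns 4 and 11 blue for most genes, while column 5 runs from red at RPL23A to blue at RPL39.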

How the data were processed

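The deposited values are raw counts per transcript, whole numbers that the authors did not normalize. According to the methods and the submitters' notes, the authors trimmed paired reads with Trimmomatic 0.25, mapped them at default settings to human hg19 (Bowtie2 2.0.6, TopHat2 2.0.7, GSNAP and Stampy), and counted primary alignments with HTSeq 0.5.4 in its intersection-nonempty mode. That mode assigns a read to no transcript where several fit equally well. The strand setting is not given in the sources used here, so overlapping antisense transcripts cannot be told apart from the genes. Columns were matched to animals by number, the only link between them, and 0 columns were left out.

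Rows of an accession were summed (each gene of the list had 1). Levels are counts per 1000000 read pairs, with the number of pairs that passed quality control taken from the study. In 7 comparisons, edgeR 4.0.16 (R 4.3.3, glmQLFit and glmQLFTest, robust) was fitted to all accessions that passed filterByExpr, with a block for each animal, library sizes set to the read pairs in both tables, and Benjamini-Hochberg adjustment over all accessions tested. The block was part of the design, as the reads behind both columns are shared, and in all 7 comparisons the best-correlated column of each of the 12 animals was that animal's own. The log2 differences are edgeR's estimates. Their errors are SDs over the 12 animals of each animal's own log2 ratio, with 1 count added to both tables. For a gene near 0 in a table, the estimate can therefore lie away from the mean of those ratios. Folds against a table at 0 use a floor of 3 counts over the 12 animals, which covers counting error only. The median differences of the list are the same with such genes set at that bound. Coefficients of variation and shares of animals used genes with a mean of 100 or more counts.

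Genes named with values were, per comparison, up to 6 in each direction with the largest log2 difference among called genes with a mean of 100 or more counts and 12 of 12 animals in 1 direction, those against the majority, those at or near 0 in a table where another has 100 or more, and the 3 largest and 3 smallest coefficients of variation. Values of 1 gene of the list are not reported here, although it is in the counts and sums. Other genes were named after their values were seen. The rule that fixes the 46 accessions uses no measured value, but the genes and lists were proposed with earlier results of these data known. The lists of other ribosomal genes and of cell type markers were not used, because their accessions carry no gene names in the sources used here, and no sequences or lengths were at hand. Alternatives were TMM scaling, DESeq2 1.42.0, no filter, no block, the largest row of an accession, and leaving out animal 5 or 11. For the sums they were the table total as denominator with the list taken out and leaving out the gene with the highest count. Analyses used Python 3.11.15 with numpy 2.4.6, pandas 2.3.3, scipy 1.17.1 and matplotlib 3.10.9.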

Additional observations from a re-analysis of the deposited data

How the results depend on the processing

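DESeq2, the largest row of each accession, and leaving out animal 5 or animal 11 kept every count of called genes within 1.5 times, and all 55 differences of the genes named by rule kept direction and call under each. TMM scaling of the table totals moved the median of all accessions by -0.74 (TopHat2 against GSNAP) to 0.04 (TopHat2 against Bowtie2) on the log2 scale. With it 2 genes were lower in Stampy against Stampy-G, 2 in TopHat2 against Bowtie2-G and 3 in TopHat2 against GSNAP, 12 were higher and 13 lower in Stampy-G against Bowtie2-G, and 6 were higher and 26 lower in Stampy against Bowtie2. In the latter comparison RPL18 turned to -0.062 and RPL36 fell to 0.048, and both lost their call (adjusted p = 0.232 and 0.408). The other 53 named differences kept direction and call. Under TMM scaling the median of all accessions lay between -0.11 (Bowtie2 against Bowtie2-G) and 0.033 (TopHat2 against Bowtie2). Without the filter on low counts, 3 genes were lower in TopHat2 against Bowtie2-G and 3 in TopHat2 against GSNAP, where more sparsely counted genes were tested. Without the replicate block, 13 genes were higher and 3 lower in Stampy-G against Bowtie2-G, 6 and 1 in Stampy against Bowtie2, and 5 and 3 in TopHat2 against Bowtie2, and 11 of the 55 named differences lost their call with their direction kept. That fit sets differences between methods against the whole spread between animals. The shares of the table totals moved by less than 1 SD under each alternative tried. Depth limits the genes with few counts: at a level of 0 in all 12 animals a fold is only a lower bound.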
